A study of Mus musculus with 24 samples.

Results

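Unpolarized macrophages (M0) grown from the bone marrow of post-sepsis mice were compared with M0 macrophages grown from naive marrow. The arrays were chosen by their labels alone, 4 of post-sepsis M0 and 4 of naive M0, which make 8 of the 24 Agilent arrays of the series. Per the labels, the donors of both groups were male C57BL/6 mice of 10 weeks and 20 to 30 g. Post-sepsis marrow was taken 14 days after the induction of sepsis, and naive mice had no sepsis. In both groups mononuclear progenitors that adhered were grown for 7 days in RPMI with 20% L929 supernatant and 10% FBS, and no polarizing agent was added. The other arrays were of tumour-associated macrophages (TAM) from post-sepsis and naive mice, and of naive marrow cultures polarized with interferon-gamma and lipopolysaccharide (M1) or with IL-10 (M2). The design text gave 2 marrow experiments with 3 samples per group, of which the best 4 per group went onto arrays. It did not say which experiment a sample came from or whether each came from its own animal. The p-values of the M0 comparison therefore measure only the spread between cultures within groups, with that of the M1 and M2 cultures pooled in. The part of the experiment was not tested.

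As background, L929 fibroblast supernatant supplies CSF1, the growth factor that turns marrow progenitors into macrophages. Macrophages sense type I interferon through the receptor IFNAR, which activates a complex of STAT factors and IRF9. This complex binds interferon-stimulated response elements in the promoters of antiviral genes. Sterol and fatty acid synthesis is controlled by the SREBP factors, which enter the nucleus when sterols are low, whereas LXR receptors turn on cholesterol export when sterols are high. ATF4 drives amino acid uptake and serine synthesis, and HIF-1 drives glycolysis.

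Each array carried 62976 spots, and a level here is the log2 processed intensity relative to the 75th percentile of its own array. Between 57.5% and 65.7% of spots on the 8 arrays were well above background, no spot was saturated, and the 75th percentile ran from 236 to 534 intensity units. Pairs of arrays correlated at 0.887 to 0.986 within post-sepsis M0, at 0.917 to 0.993 within naive M0, and at 0.860 to 0.973 between the groups. Post-sepsis replicate 3 lay apart from the other arrays on the first principal component, which held 43.5% of the variance and did not separate the groups. Slide 2 held post-sepsis replicates 1 and 3 with naive replicates 3 and 4, slide 3 held post-sepsis replicates 2 and 4 with naive replicate 1, and slide 1 held naive replicate 2. The second principal component held 29.1% of the variance and did not separate the groups either. On it the slide 3 arrays lay at 78, 37 and 87, above all other arrays, which lay between -110 and 12. In the deposited value table, all 8 M0 columns matched the ranks of another sample's scanner file better than those of their own, so the scanner files were used. Whether the table's columns or the assignment of scanner files to samples is off was not settled, and every difference below rests on the samples to which the scanner files were assigned.

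The cells carried macrophage markers in both groups. Csf1r, the CSF1 receptor, lay at 7.48, 7.94, 7.27 and 7.78 in post-sepsis M0, against 9.10, 8.91, 8.63 and 8.89 in naive M0. The lysosomal marker Cd68 lay at 8.28, 8.57, 7.94 and 8.30 in post-sepsis M0, against 8.67, 8.49, 8.12 and 8.51 in naive M0. The 2 groups did not overlap in Csf1r, which was lower in post-sepsis M0, and overlapped in Cd68. The log2 difference, post-sepsis M0 minus naive M0, was -1.27 ± 0.18 for Csf1r and -0.17 ± 0.17 for Cd68, and every difference below is given in this direction with its standard error. Markers of lymphoid and stromal cells had low summed signals beside the 20 macrophage identity genes. The latter summed to 2340 to 2690 times the 75th percentile in post-sepsis M0 and 3720 to 4090 times in naive M0. All tested T, NK and B cell markers were, however, well above background on 3 or more post-sepsis arrays. Of the T and NK cell markers, 10 of 14 with a probe were tested and none passed; Cd3g, Cd8a, Ncr1 and Klrb1c were well above background on fewer than 3 arrays in each group, the least that a test required, and such genes are called not detected below. The summed signal of the tested ones, in multiples of the 75th percentile, was 7.56 to 21.3 in post-sepsis M0 and 8.59 to 13 in naive M0. B cell markers summed to 5.48 to 15.1 in post-sepsis M0 and 6.5 to 14.7 in naive M0, and Ighm, Igkc and Blk were not detected. Stromal markers summed to 0.76 to 2.32 in post-sepsis M0 and 0.706 to 1.99 in naive M0, with Lum, Pdgfra, Pdgfrb, Cxcl12 and Postn not detected. The 3 of 7 endothelial markers that were tested summed to 10.2 to 35.9 in post-sepsis M0 and 11 to 14 in naive M0, with Cdh5, Tek, Emcn and Esam not detected. The 4 of 10 mast cell and basophil markers that were tested summed to 2.51 to 4.91 in post-sepsis M0 and 1.35 to 8.89 in naive M0. Cpa3, Mcpt8, Cma1, Tpsab1, Ms4a2 and Fcer1a were not detected. Dendritic cell markers summed to 277 to 478 in post-sepsis M0 and 234 to 462 in naive M0, with Xcr1, Clec9a, Itgae and Dpp4 not detected. Erythroid and megakaryocyte markers summed to 154 to 207 in post-sepsis M0 and 76.6 to 135 in naive M0, without overlap between the groups, and of the 4 tested only Pf4 passed, while Hbb-b1, Alas2, Klf1, Itga2b and Gp9 were not detected. The part of these cells in the results was not tested.

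Post-sepsis M0 differed from naive M0 in interferon-induced genes, which were lower, and in genes of lipid synthesis, serine synthesis, glycolysis and cell division, which were higher. limma called 3533 of 29668 genes (11.9%) at an adjusted p of 0.05. Of these, 1780 (6.00% of all genes tested) were higher and 1753 (5.91%) lower in post-sepsis M0. These shares are the background for every count of list members below. All post-sepsis arrays lay above all naive arrays in 1881 genes (6.34%) and below them in 1990 genes (6.71%), and 3128 of the called genes were among these. Among the called genes, 215 rose and 209 fell by more than 2 on the log2 scale. With slide as a block 3893 genes passed, 1794 higher and 2099 lower. Without post-sepsis replicate 3, the array that lay apart, 3446 genes passed (1995 higher, 1451 lower), among them 27 antiviral effectors that fell and 22 cholesterol, 11 serine and 29 mitosis genes that rose. The median difference over all genes was 0.05. Among long intergenic noncoding RNA probes, 147 of 8705 rose and 342 fell. With median scaling 1312 genes passed, and with the 8 M0 arrays fitted alone 1640. Among the called genes named here, 26 did not pass with median scaling and 19 did not pass in the fit of 8 arrays. Of 465 called members of the gene lists 125 had several probes, and in 6 of these the probes differed in sign.

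Of the genes measured well above background in both groups, Ccl5 fell most. Ccl5, a chemokine that attracts T cells and monocytes, lay at -0.49, -0.17, -0.47 and -0.32 in post-sepsis M0, against 7.46, 7.01, 6.70 and 7.00 in naive M0. The groups were far apart, with every post-sepsis array below the 75th percentile of its array and every naive array far above it. The difference was -7.40 ± 0.18, a 169-fold lower signal (limma adjusted p = 2.62e-12). Ccl5's probe lies at chr11:83339296-83339355 (mm9, minus strand). The chemokines of the Ccl2 family on the same chromosome went the other way. Ccl2, the main ligand of the monocyte receptor CCR2, lay at 7.05, 7.70, 6.83 and 7.73 in post-sepsis M0, against 3.37, 3.04, 2.71 and 3.12 in naive M0. Every post-sepsis array lay above every naive array, by 4.27 ± 0.26 (adjusted p = 6.7e-08). Ccl7, a further CCR2 ligand, lay at 5.44, 6.14, 5.32 and 6.30 in post-sepsis M0, against 1.64, 1.22, 0.88 and 1.29 in naive M0, and the difference was 4.55 ± 0.25. Ccl12, a close mouse relative of Ccl2, differed by 4.23 ± 0.22. The probes of Ccl2, Ccl7 and Ccl12 lie at chr11:81850650-81850709, chr11:81860656-81860715 and chr11:81916764-81916823 (mm9, plus strand). These chemokines are alike in sequence, and whether their probes detect one another was not tested.

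**Figure D1:**
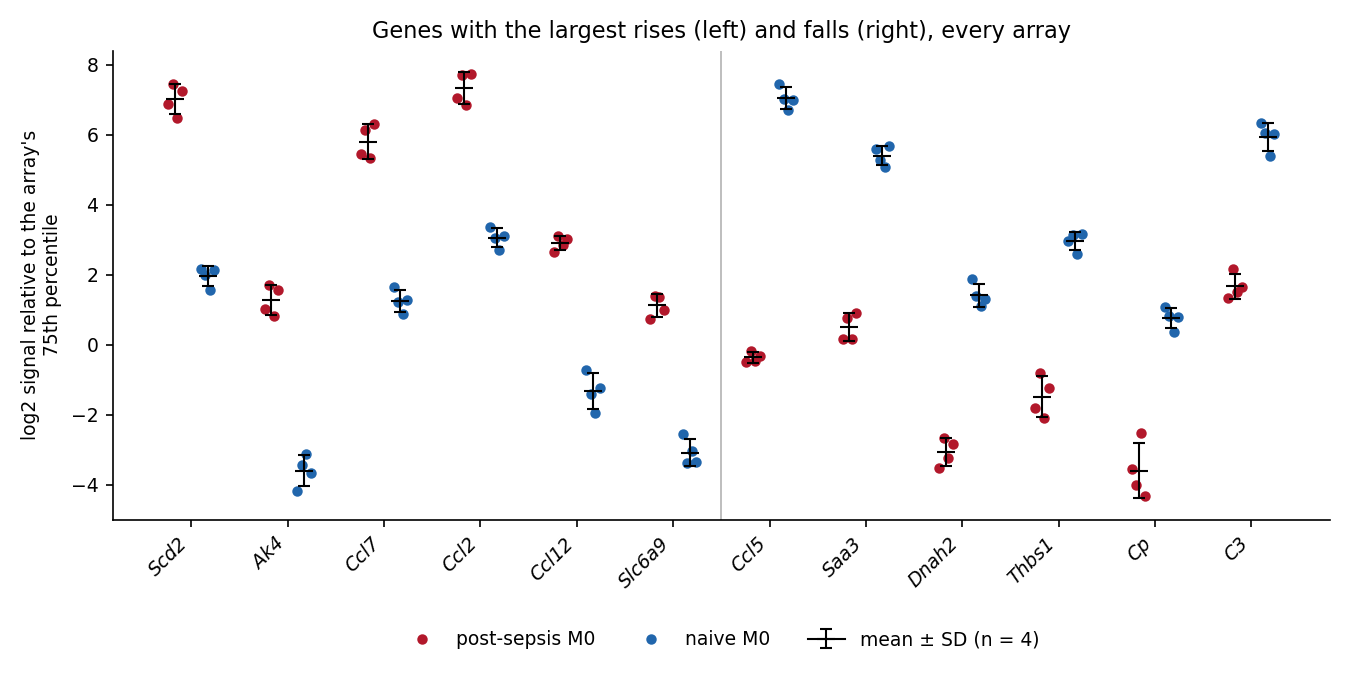
Log2 signal relative to the 75th percentile of each array (vertical axis) for the 6 genes with the largest rises and the 6 with the largest falls among genes well above background in both groups. Each point is 1 array, post-sepsis M0 in red and naive M0 in blue, and bars give the mean and SD of 4 arrays. In all 12 genes the 4 post-sepsis arrays lie apart from the 4 naive arrays, and the gap is largest for Ccl5 (-7.40 ± 0.18).

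Other chemokines and their receptors moved in both directions. Of 15 monocyte chemokines and receptors tested, 5 rose and 3 fell; 3 rose with median scaling or with the 8 arrays alone. Ccl8 fell by 6.12-fold (-2.61 ± 0.22), whereas Ccl9 rose (0.87 ± 0.20). Ccr2 differed by 0.28 ± 0.32 and Cx3cr1 by -0.68 ± 0.32, neither of which passed. Cxcl16, a membrane-bound chemokine for T cells, lay at -0.37, 0.09, -0.44 and -0.21 in post-sepsis M0, against 4.31, 3.77, 3.26 and 3.74 in naive M0. All naive arrays were high and all post-sepsis arrays near or below the 75th percentile, a 16-fold difference. Cxcl10, an interferon-induced attractant of T cells, fell (-1.90 ± 0.24), and Cxcl9 did not pass (-0.98 ± 0.39). Cxcr4, the receptor that holds cells in marrow, fell (-1.93 ± 0.16), while its ligand Cxcl12 was not detected. Pf4, the platelet factor, rose (0.72 ± 0.18), and Cxcl2 and Cxcl14 fell (-1.12 ± 0.26 and -1.21 ± 0.22).

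Interferon-induced genes were lower in post-sepsis M0. Oasl1, a regulator of antiviral translation, lay at -0.56, -0.01, -0.73 and 0.10 in post-sepsis M0, against 3.52, 3.40, 3.25 and 3.56 in naive M0. The naive arrays were tightly grouped, the post-sepsis arrays all lay below them, and the difference was -3.73 ± 0.19 (adjusted p = 1.29e-08). Of 31 antiviral effectors tested, 26 fell and none rose, against 5.91% of all genes that fell. Their median difference was -1.75 (0.05 over all genes), and it was -1.75 on slide 2 and -1.74 on slide 3. Ifit3, which binds viral RNA together with Ifit1, lay at -0.08, 0.35, -0.41 and 0.27 in post-sepsis M0, against 4.00, 3.71, 3.33 and 3.82 in naive M0. Ifit3 fell by 12.8-fold and Ifit1 by 6.99-fold, and the groups overlapped in neither. Mx1, a GTPase, differed by -2.69 ± 0.23, Rsad2, or viperin, by -2.30 ± 0.23, Oas2, which makes the activator of RNase L, by -2.46 ± 0.26, and Isg15, a ubiquitin-like modifier, by -1.52 ± 0.21. Ifit3b and Oas1g, which have close relatives in their clusters, differed by -3.46 ± 0.22 and -1.78 ± 0.18, and 2 post-sepsis arrays did not detect Oas1g above background. Ifi44 differed by -2.77 ± 0.60, and post-sepsis replicate 3 lay among the naive arrays. Eif2ak2 (-0.61 ± 0.23), Bst2 (-0.94 ± 0.33), Herc6 (-0.60 ± 0.27), Ifi35 (-0.36 ± 0.19) and Slfn5 (0.26 ± 0.39) did not pass.

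The guanylate-binding proteins and immunity-related GTPases, which attack vacuoles holding bacteria and parasites, fell in 8 of 12 cases and rose in none. Their summed signal was 31.7 to 227 in post-sepsis M0 and 73.5 to 90.4 in naive M0, so the groups overlapped in the sum. Gbp2 lay at 0.26, 0.60, 0.03 and 0.29 in post-sepsis M0, against 2.58, 2.37, 1.72 and 2.46 in naive M0. All 4 post-sepsis arrays lay below the naive arrays, a 3.96-fold difference (-1.99 ± 0.20). Gbp4 was above background on all naive arrays and on no post-sepsis array, at least 5.82-fold lower. Gbp3 differed by -2.62 ± 0.22, Irgm1 by -1.61 ± 0.22 and Igtp by -1.13 ± 0.22. Gbp5 (-0.24 ± 0.59), Gbp6 (0.94 ± 0.82), Iigp1 (-0.96 ± 0.35) and Tgtp1 (0.26 ± 0.66) did not pass. With the mean of all probes of a gene, Slfn5 and Gbp6 passed as lower (-1.13 and -1.74).

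Of 19 interferon sensing and signalling genes, 9 fell and none rose, with a median of -0.80; 5 fell with median scaling. Irf7, the factor that amplifies type I interferon production, lay at -1.35, -1.10, -2.04 and -0.80 in post-sepsis M0, against 1.87, 1.79, 1.88 and 2.10 in naive M0. The groups were far apart, by -3.24 ± 0.23 (adjusted p = 3e-07). Usp18, a negative regulator at IFNAR, differed by -1.88 ± 0.18, Irf1 by -1.40 ± 0.19 and Irf9 by -0.85 ± 0.19. The receptor chain Ifnar1 (-0.51 ± 0.22), Stat2 (-0.81 ± 0.26) and the feedback inhibitor Socs1 (-0.21 ± 0.15) did not pass, and Ifnb1 was not detected. Among 12 sensors of viral nucleic acid, 7 fell. Zbp1 differed by -2.37 ± 0.32, Ifi204 by -2.12 ± 0.22, the RNA sensors Ifih1 and Ddx58 by -1.44 ± 0.20 and -1.25 ± 0.25, and Tlr7 by -1.32 ± 0.18. The DNA-sensing genes Cgas (0.68 ± 0.23), Sting1 (0.51 ± 0.20) and Aim2 (0.37 ± 0.28) did not pass.

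The promoters of 4 genes that fell are shown because each holds a pair of GAAA blocks with any 2 bases between them, on either strand, the core of the interferon-stimulated response element. The stretches are from RefSeq (GRCm38.p6), are written 5′ to 3′ along the gene's strand, lie before the start site, and have the matched letters in capitals. They are chr19:34640779-34640838, plus strand (Ifit1), chr19:34583382-34583441, plus strand (Ifit3), chr4:156200850-156200909, minus strand (Isg15) and chr3:142620579-142620638, plus strand (Gbp2).
Ifit1: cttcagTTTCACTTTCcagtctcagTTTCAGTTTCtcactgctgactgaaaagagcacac
Ifit3: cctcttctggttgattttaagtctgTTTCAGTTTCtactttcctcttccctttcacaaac
Isg15: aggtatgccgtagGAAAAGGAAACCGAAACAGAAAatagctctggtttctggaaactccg
Gbp2: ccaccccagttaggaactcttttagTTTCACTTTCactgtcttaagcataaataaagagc
The motif occurred between 250 bases before and 50 bases after the start site in 3.99% of the 27025 genes with a promoter sequence, and in 3.97% of the 12633 tested genes with one. It occurred in 12 of 28 antiviral effectors and in 8 of 8 GTPases with a sequence. Among called genes with a sequence, it was found in 86 of 953 that fell (9.02%) and in 28 of 1074 that rose (2.61%). In Ifit1 and Isg15 the capitals cover more than 1 match, and those in Isg15 overlap.

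**Figure D2:**
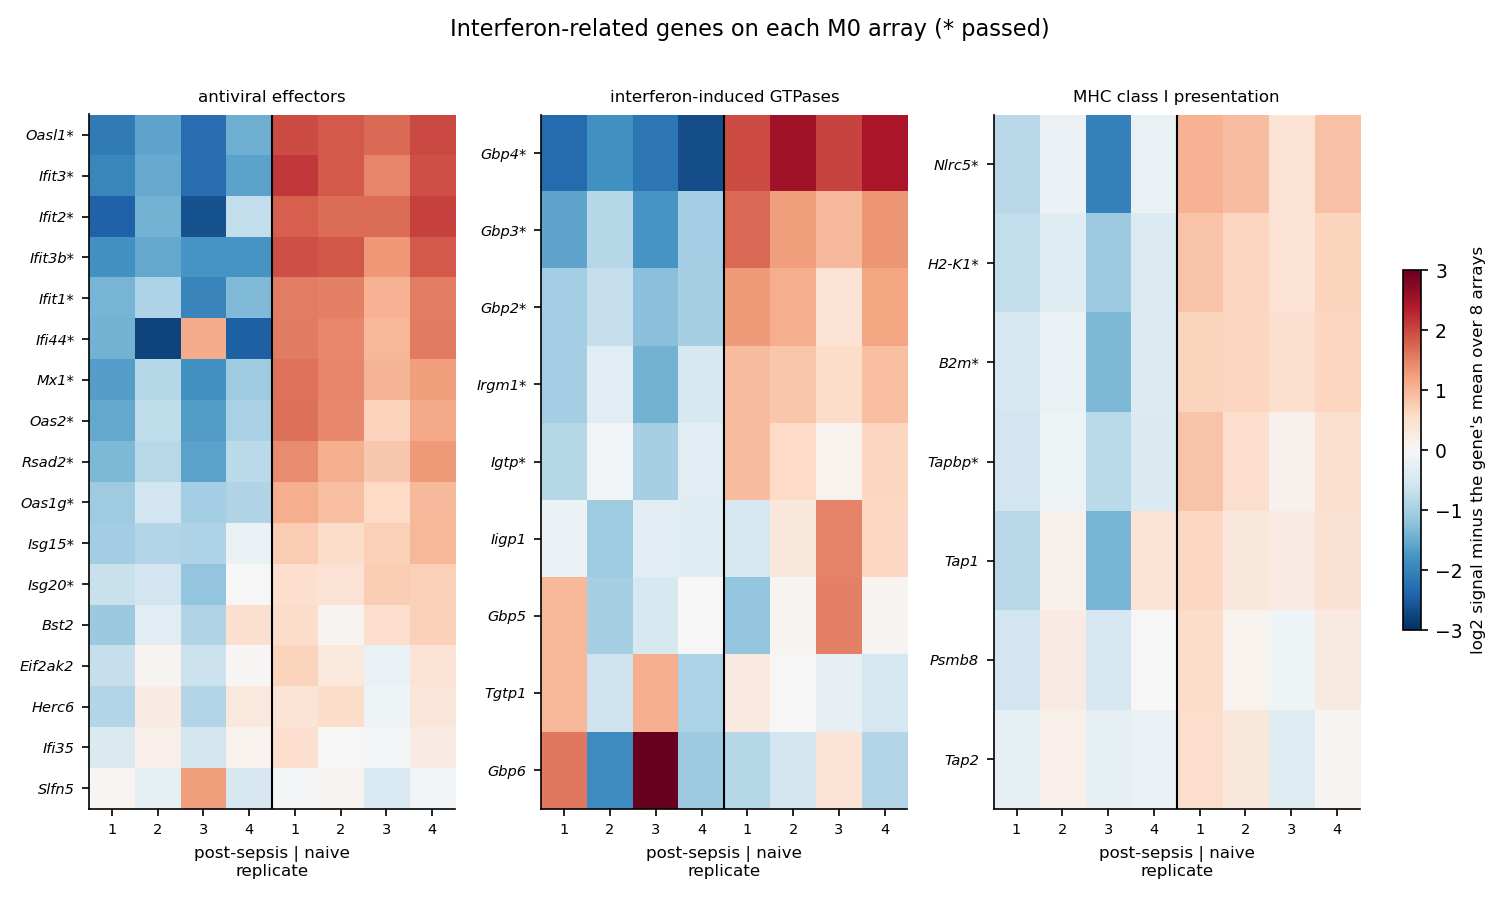
Log2 signal of each gene minus its mean over the 8 arrays, as colour from blue (below the mean) to red (above), cut at 3 in both directions, for the antiviral effectors, interferon-induced GTPases and MHC class I genes named in the text. Columns are arrays, post-sepsis replicates left and naive replicates right, rows are genes in order of their difference, and an asterisk marks genes that passed. The antiviral effectors marked as passed are blue on the post-sepsis side, except Ifi44 on replicate 3 and Isg20 on replicate 4.

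MHC class I presentation, which interferon also raises, was lower. Of 15 genes 7 fell, and 1 rose. With median scaling 4 fell and with the 8 arrays alone 3, and none rose in either. The rise was also lost without post-sepsis replicate 1, 2 or 4 or naive replicate 2, 3 or 4. B2m, the light chain of class I molecules, averaged 7.58 ± 0.50 in post-sepsis M0 and 8.80 ± 0.08 in naive M0 (SD, n = 4 each). Its naive arrays lay within a narrow range and the post-sepsis arrays below it, by -1.22 ± 0.21 (2.33-fold). The heavy chain H2-K1 differed by -1.30 ± 0.18, the peptide-loading protein Tapbp by -0.99 ± 0.18 and the class I activator Nlrc5 by -1.62 ± 0.33. The transporters Tap1 (-0.85 ± 0.32) and Tap2 (-0.31 ± 0.21) and the immunoproteasome subunit Psmb8 (-0.40 ± 0.21) did not pass. Class II presentation gave 1 rise and 1 fall in 11 genes, where 6.00% of all genes rose and 5.91% fell. It gave 4 rises without naive replicate 1, and no call with median scaling or with the 8 arrays alone. H2-Eb1 differed by 0.84 ± 0.20 and the co-stimulator Cd86 by -0.88 ± 0.20, and Cd74 (0.09 ± 0.24) did not pass. Cd274, which encodes PD-L1, the ligand of PD-1, lay at 1.25, 1.80, 0.53 and 1.61 in post-sepsis M0, against 4.07, 3.79, 3.26 and 3.88 in naive M0. The groups did not overlap, and Cd274 fell by 5.48-fold. Tnfsf9, the ligand of the T cell co-stimulator 4-1BB, rose by 5.71-fold (2.51 ± 0.19), and Vsir, an inhibitory ligand, fell (-1.63 ± 0.26).

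Of 14 inflammatory cytokines tested 3 rose and 4 fell, with a median of -0.02; 1 rose and 3 fell with median scaling or with the 8 arrays alone. Il1b lay at -3.81, -2.74, -3.53 and -3.02 in post-sepsis M0, against -0.06, -0.16, -0.36 and -0.13 in naive M0. The post-sepsis arrays were all low, 1 of them not above background, for a difference of -3.10 ± 0.21. Il18bp, which captures IL-18, fell by 11.6-fold (-3.54 ± 0.22), and Acod1, which makes itaconate, by 7.34-fold (-2.88 ± 0.17). Tnf (0.19 ± 0.23), Il10 (-0.05 ± 0.25) and Nos2 (-0.03 ± 0.16) did not pass, and Il6, Il12b and Ptgs2 were not detected. In the list of NF-kB subunits and feedback regulators, 10 of 15 fell and none rose; 4 fell with median scaling or with the 8 arrays alone. The inhibitor Nfkbie differed by -1.43 ± 0.26, Bcl3 by -1.36 ± 0.20 and the apoptosis inhibitor Birc3 by -1.36 ± 0.22, while Nfkb1 (-0.41 ± 0.32) and Rela (-0.58 ± 0.21) did not pass. Of 16 toll-like receptors and adaptors 7 fell, and between 2 and 4 without post-sepsis replicate 1 or 3 or naive replicate 1, 2 or 4; 1 fell with median scaling or with the 8 arrays alone. Tlr2, for bacterial lipopeptide, differed by -1.36 ± 0.19 and Tlr13 by -1.03 ± 0.21, whereas Tlr4, the endotoxin receptor, differed by -0.47 ± 0.29 and did not pass. The early response genes Fos (-2.43 ± 0.28), Dusp1 (-2.30 ± 0.20) and Zfp36 (-1.99 ± 0.23), the last an RNA-binding protein that degrades cytokine transcripts, fell. Jun (0.03 ± 0.20) did not pass.

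Acute phase and complement genes were among the largest falls. Saa3, a serum amyloid made by macrophages in mice, lay at 0.17, 0.77, 0.16 and 0.91 in post-sepsis M0, against 5.58, 5.27, 5.07 and 5.67 in naive M0. The gap between the groups was wide, by -4.89 ± 0.20 (adjusted p = 2.8e-09). C3, the central complement protein, lay at 1.34, 2.17, 1.51 and 1.66 in post-sepsis M0, against 6.32, 6.04, 5.38 and 6.01 in naive M0, a 19.2-fold difference (-4.26 ± 0.22). Cp, or ceruloplasmin, a copper ferroxidase, differed by -4.37 ± 0.32, and 1 post-sepsis array did not detect it above background. Of 9 acute phase genes tested 7 fell and none rose, Saa1 by -3.19 ± 0.22 and Hp, or haptoglobin, by -1.43 ± 0.15 among them; Saa1 has a close relative, Saa2, that was not detected. Of 15 complement genes 6 fell and 2 rose; 3 fell and 1 rose with median scaling or with the 8 arrays alone. Complement factor B, Cfb, differed by -4.88 ± 0.31, with 2 post-sepsis arrays not above background. C1qa differed by -1.07 ± 0.24 and the C5a receptor C5ar1 by 0.89 ± 0.20. Neutrophil genes moved both ways. In the neutrophil list 10 of 19 fell and 3 rose, and the granule genes Mpo and Ctsg, given below, were higher. The list's summed signal was 195 to 432 in post-sepsis M0 and 333 to 881 in naive M0. S100a9, a calcium-binding protein of neutrophils and monocytes, lay at 4.70, 5.68, 5.25 and 5.30 in post-sepsis M0, against 7.26, 7.26, 7.08 and 7.27 in naive M0. Ltf differed by -2.43 ± 0.27 and Lcn2, which captures iron carriers of bacteria, by -1.69 ± 0.19. Whether fewer granulocytic cells or less RNA per cell lies behind these values cannot be told apart in bulk RNA, and their part in the acute phase result was not tested.

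Receptors and regulators of mature macrophages were lower. In the macrophage identity list, 12 of 20 fell and 1 rose (median -0.86); 8 fell with median scaling or with the 8 arrays alone. Adgre1, which encodes F4/80, averaged 5.46 ± 0.37 in post-sepsis M0 and 6.87 ± 0.24 in naive M0 (SD, n = 4 each). The groups did not overlap, and the difference was -1.40 ± 0.20. Aif1 differed by -2.08 ± 0.19, Mpeg1, a pore-forming protein of phagocytes, by -1.20 ± 0.25 and the cysteine protease Ctss by -1.16 ± 0.17. The transcription factor Cebpa differed by -1.65 ± 0.28, while Spi1, which encodes PU.1, did not pass (-0.05 ± 0.22). Spic, the factor of iron-recycling macrophages, lay at -1.96, -1.92, -2.27 and -1.89 in post-sepsis M0, against 1.39, 1.16, 1.05 and 1.34 in naive M0, and the fall was -3.24 ± 0.16. Cd5l, a secreted scavenger-like protein of tissue macrophages and an LXR target, lay at 3.73, 4.45, 3.74 and 4.39 in post-sepsis M0, against 8.09, 7.53, 7.39 and 7.59 in naive M0. Both groups had strong signal, and naive arrays were higher by 11.9-fold.

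Uptake receptors and lectins moved both ways. Axl, a receptor for apoptotic cells, lay at -0.25, 0.60, -0.73 and 0.27 in post-sepsis M0, against 3.25, 3.03, 2.39 and 2.86 in naive M0. No post-sepsis array reached the naive range, and the difference was -2.91 ± 0.27. Mertk fell as well (-1.90 ± 0.25), as did Marco, a scavenger receptor for bacteria (-1.83 ± 0.20). The lectin Clec7a, which encodes dectin-1, fell by 5.6-fold, and the formyl peptide receptors Fpr1 and Fpr2 differed by -2.27 ± 0.18 and -2.95 ± 0.35, with Fpr2 detected on 3 post-sepsis arrays. The mannose receptor Mrc1 rose instead, lying at 5.96, 6.57, 5.82 and 6.34 in post-sepsis M0, against 4.72, 4.42, 4.01 and 4.49 in naive M0. The groups did not overlap, and the difference was 1.76 ± 0.24. Clec10a (1.04 ± 0.20) and Stab1 (1.33 ± 0.22) rose too. Of 13 alternative activation genes tested 4 rose and 4 fell; 2 rose and 2 fell with median scaling. Retnla, a secreted protein that IL-4 raises, lay at -5.83, -6.81, -2.16 and -6.31 in post-sepsis M0, against 1.74, 1.54, 0.95 and 1.34 in naive M0. It was above background on 1 post-sepsis array, replicate 3, so its difference of -6.67 ± 0.70 has an uncertain size. Chil3 fell (-0.99 ± 0.22), and Arg1 was not detected.

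Most genes of cholesterol synthesis were higher in post-sepsis M0. Of 25 genes of synthesis and uptake, 22 rose and 1 fell, against 6.00% of all genes that rose. The median was 1.81, and it was 1.73 on slide 2 and 1.81 on slide 3. Hmgcs1, which makes HMG-CoA at the head of the pathway, differed by 1.67 ± 0.21. Fdps, which makes farnesyl diphosphate, lay at 6.70, 7.06, 6.30 and 6.50 in post-sepsis M0, against 3.93, 3.90, 3.23 and 3.80 in naive M0. All post-sepsis arrays lay above all naive arrays, by 7.61-fold, and the squalene epoxidase Sqle differed by 2.37 ± 0.17. Lss, which closes the sterol ring, lay at 1.43, 2.35, 1.07 and 2.46 in post-sepsis M0, against -1.48, -1.67, -1.40 and -1.19 in naive M0. Post-sepsis replicates 2 and 4 were the highest, and the groups did not overlap (3.26 ± 0.27). Npc2, which moves cholesterol out of lysosomes, fell (-1.16 ± 0.22). Insig1, the sterol-regulated anchor of SREBP, rose (2.09 ± 0.22), while Srebf2 (-0.18 ± 0.32) and Scap (-0.32 ± 0.22) did not pass.

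Scd2 had the largest rise among genes well above background in both groups. Scd2, a stearoyl-CoA desaturase, lay at 6.88, 7.45, 6.47 and 7.26 in post-sepsis M0, against 2.16, 2.00, 1.56 and 2.15 in naive M0. The difference was 5.05 ± 0.22, or 33.2-fold (adjusted p = 4.04e-09), and was 4.83 on slide 2 and 5.20 on slide 3. Its probe lies at chr19:44381024-44381083 (mm9, plus strand). Scd1 rose by 5.97 ± 0.42, but 2 naive arrays did not detect it above background. Fads2, the delta-6 desaturase, was above background on all post-sepsis arrays and on no naive array, at least 38.6-fold higher. A further Fads2 probe gave 3.14, and it became the brightest, at 3.09 and 3.04, without post-sepsis replicate 2 or 4. Of 26 genes of fatty acid synthesis 14 rose and 2 fell. Fasn, the fatty acid synthase, lay at -0.43, 0.09, -0.74 and -0.27 in post-sepsis M0, against -3.05, -3.15, -3.67 and -3.23 in naive M0. The groups did not overlap, and Fasn was 7.66-fold higher. The elongase Elovl6 differed by 3.08 ± 0.33, Acaca by 1.47 ± 0.19, Acly, which makes cytosolic acetyl-CoA, by 1.30 ± 0.23 and Srebf1 by 1.38 ± 0.17. Genes of triglyceride assembly, such as Dgat1 (0.00 ± 0.22) and Dgat2 (-0.18 ± 0.23), did not pass.

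**Figure D3:**
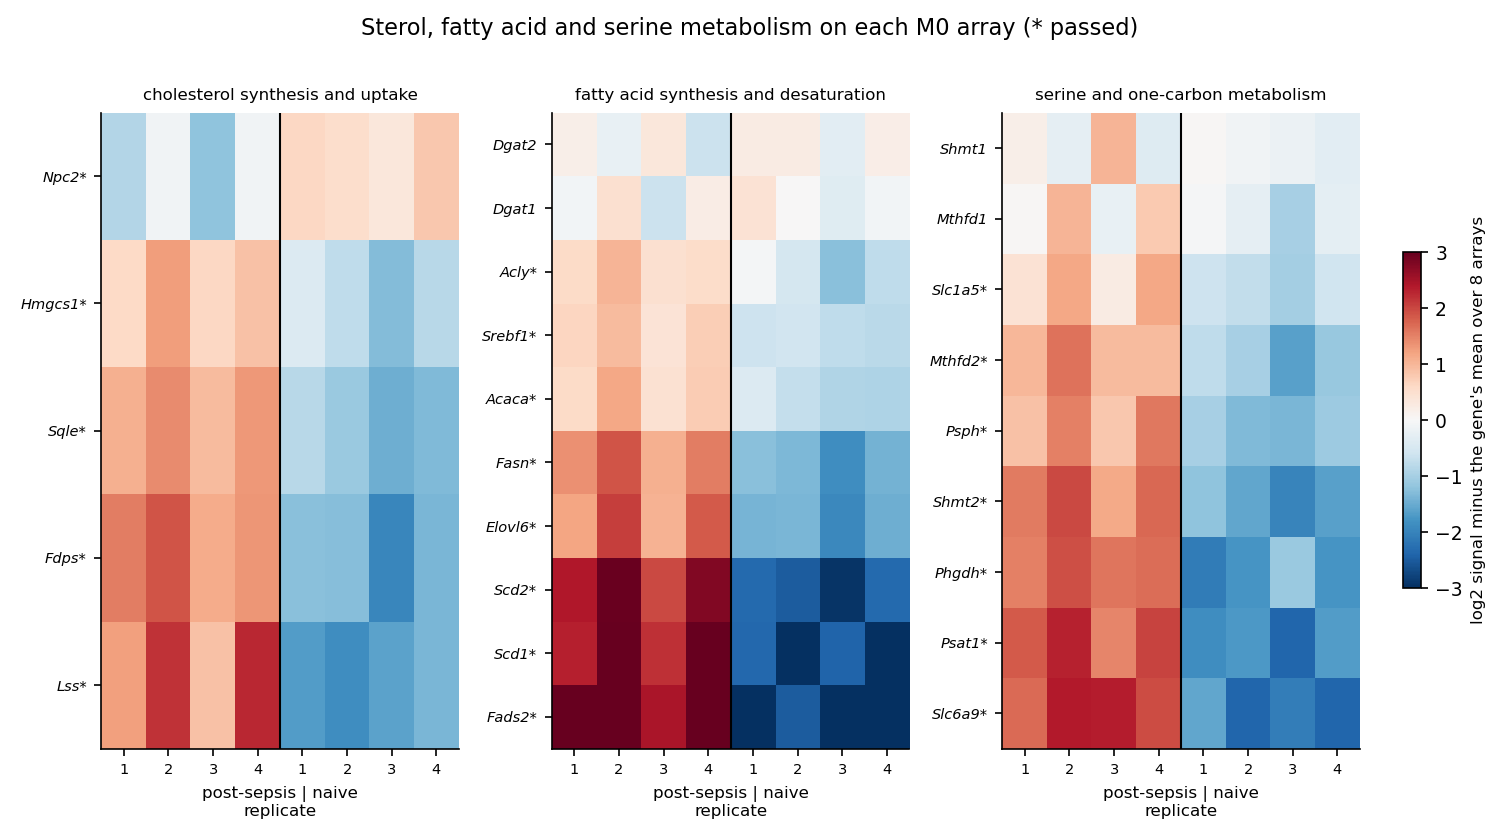
Log2 signal of each gene minus its mean over the 8 arrays, as colour from blue to red, cut at 3 in both directions, for the genes of cholesterol synthesis and uptake, fatty acid synthesis, and serine and one-carbon metabolism named in the text. Columns are arrays, post-sepsis replicates left and naive replicates right, and an asterisk marks genes that passed. Cholesterol genes that rose are red on the post-sepsis arrays, and Scd2, Scd1 and Fads2 have the deepest colours.

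In the list of cholesterol export and LXR targets more genes fell than rose. Of 13 genes 7 fell and 1 rose, and 5 fell with median scaling or with the 8 arrays alone. Nr1h3, which encodes LXR-alpha, lay at 1.14, 1.48, 1.20 and 1.29 in post-sepsis M0, against 3.88, 3.56, 2.92 and 3.40 in naive M0. Each naive array lay above each post-sepsis array, and Nr1h3 fell by 4.49-fold (-2.17 ± 0.19). The apolipoproteins Apoc1 (-3.07 ± 0.36), Apoc2 (-2.47 ± 0.18) and Apoe (-0.81 ± 0.20) and the phospholipid transfer protein Pltp (-2.03 ± 0.25) fell. Ch25h, which makes 25-hydroxycholesterol, rose (2.71 ± 0.28). The exporters Abca1 (-0.63 ± 0.26) and Abcg1 (0.06 ± 0.17) did not pass. Among genes of lipid storage and oxidation 5 of 18 fell, such as Fabp4 (-1.40 ± 0.22) and Pparg (-1.03 ± 0.21), and 2 with median scaling.

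The promoters of Hmgcs1 and Lss are shown because both hold the box CCAAT, on either strand, which NF-Y binds beside SREBP. They lie at chr13:119690281-119690335, plus strand (Hmgcs1) and chr10:76531518-76531572, plus strand (Lss), from the same RefSeq build and written as above, with the box in capitals.
Hmgcs1: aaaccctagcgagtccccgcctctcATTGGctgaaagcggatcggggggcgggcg
Lss: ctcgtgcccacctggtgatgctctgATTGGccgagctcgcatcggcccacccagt
CCAAT is short and occurred in 41.1% of all promoters and in 42.5% of those of tested genes. It occurred in 15 of 16 cholesterol, 21 of 26 mitosis and 15 of 23 fatty acid genes with a sequence, in 593 of 1074 called genes that rose (55.2%) and in 377 of 953 that fell (39.6%).

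Serine synthesis and the folate cycle of mitochondria were higher. Psat1, the aminotransferase of serine synthesis, lay at 4.84, 5.32, 4.47 and 5.02 in post-sepsis M0, against 1.13, 1.28, 0.63 and 1.32 in naive M0. The groups were well apart, and Psat1 rose by 14.1-fold (3.82 ± 0.21; adjusted p = 2.12e-08). Of 15 genes of serine and one-carbon metabolism 10 rose and none fell, with a median of 2.38. Slc6a9, a glycine transporter, lay at 0.72, 1.40, 1.38 and 0.99 in post-sepsis M0, against -2.54, -3.37, -3.04 and -3.36 in naive M0, and it rose by 18.4-fold. Phgdh, the first enzyme of serine synthesis, differed by 3.37 ± 0.36. The probe of the transcribed pseudogene Gm6756 gave 3.28 ± 0.36, with array values close to those of Phgdh, and whether it detects Phgdh RNA was not tested. Psph, the last enzyme of the route, differed by 2.39 ± 0.20, the mitochondrial enzymes Shmt2 and Mthfd2 by 3.20 ± 0.26 and 2.26 ± 0.22, and the glutamine transporter Slc1a5 2.84-fold higher. The cytosolic Shmt1 (0.27 ± 0.28) and Mthfd1 (0.80 ± 0.27) did not pass.

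Targets of ATF4 rose in part. Asns, the asparagine synthetase, lay at 5.55, 6.05, 5.43 and 5.92 in post-sepsis M0, against 3.16, 2.77, 2.35 and 2.73 in naive M0. All post-sepsis arrays were above all naive arrays, by 7.91-fold (2.98 ± 0.20). Of 20 genes of the ATF4 amino acid response 10 rose and 3 fell. With median scaling 6 rose and with the 8 arrays alone 8, and none fell in either; none fell without post-sepsis replicate 1 or naive replicate 4, and 1 without post-sepsis replicate 3 or naive replicate 1 or 2. The large amino acid transporter Slc7a5 differed by 3.69 ± 0.28, Chac1, which degrades glutathione, by 3.38 ± 0.24, the pseudokinase Trib3 by 2.69 ± 0.23 and Atf4 itself by 1.19 ± 0.18. Stc2, a secreted glycoprotein, was above background in post-sepsis M0 only, at least 4.93-fold higher. The transporter chain Slc3a2 (-0.19 ± 0.20) and the stress gene Sesn2 (0.43 ± 0.18) did not pass. Of 18 tRNA synthetases 10 rose, Mars1 by 1.70 ± 0.25 and Aars by 1.61 ± 0.21 among them, and 6 with median scaling. In the unfolded protein response 9 of 20 rose, 3 with median scaling, with Hyou1 3.04-fold higher and Herpud1 higher by 1.37 ± 0.19, while the signalling genes Xbp1 (0.33 ± 0.23) and Atf6 (0.04 ± 0.33) did not pass.

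Asns and Chac1 are shown with the letters TGATGNAA, on either strand, which mark the amino acid response element that ATF4 binds. Their stretches lie at chr6:7693210-7693257, minus strand (Asns) and chr2:119351024-119351081, plus strand (Chac1).
Asns: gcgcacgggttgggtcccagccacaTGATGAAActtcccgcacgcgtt
Chac1: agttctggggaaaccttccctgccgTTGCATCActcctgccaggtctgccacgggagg
The motif occurred in 4.51% of all promoters, in 3.30% of those of tested genes, in 8 of 19 genes of the ATF4 list and in 5 of 11 tRNA synthetases with a sequence, against 1 of 11 in the serine list. It was found in 4.47% of called genes that rose and in 4.41% of those that fell.

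Glycolysis and a part of the hypoxia response were higher. Ak4, a mitochondrial adenylate kinase induced by HIF-1, lay at 1.03, 1.72, 0.82 and 1.57 in post-sepsis M0, against -4.18, -3.44, -3.11 and -3.66 in naive M0. The groups were far apart, by 4.88 ± 0.24 (adjusted p = 1.17e-08), and a second Ak4 probe gave 0.55 and passed as well. Its brightest probe lies at chr4:101139464-101139523 (mm9, plus strand). Of 25 hypoxia-inducible genes 10 rose and none fell. Mgarp, a mitochondrial protein, was above background on no naive array and was at least 13.4-fold higher. Egln3, a hydroxylase that marks HIF for decay, rose by 9.14-fold, Ankrd37 by 6.99-fold and Bnip3, of mitophagy, by 2.42-fold. Hif1a (-0.35 ± 0.32), Vegfa (-0.73 ± 0.24) and Car9 (0.16 ± 0.22) did not pass. Of 23 glycolysis genes 14 rose and 1 fell, and 8 rose with median scaling. Slc16a3, the lactate exporter, lay at 5.62, 5.74, 5.64 and 5.42 in post-sepsis M0, against 3.46, 3.14, 2.55 and 3.05 in naive M0. Post-sepsis arrays lay close together above the naive arrays, at 5.88-fold. The kinase Pgk1 differed by 2.04 ± 0.21. Its probe is placed at chr3:57906830-57906894 (mm9, minus strand), and whether it detects RNA of another locus was not tested. Pdk1, which keeps pyruvate out of mitochondria, differed by 1.92 ± 0.24, the lactate dehydrogenase Ldha by 1.37 ± 0.14 and the glucose transporter Slc2a1 by 1.31 ± 0.20. Hexokinases did not pass, with Hk2 (0.35 ± 0.22) among them. Respiratory chain subunits gave 1 rise in 24 genes, where 6.00% of all genes rose. They gave between 0 and 5 rises when 1 array was left out, with 5 without naive replicate 1.

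Promoter stretches of Ak4 and Slc16a3 are shown with ACGTG, on either strand, the core to which HIF-1 binds. They lie at chr4:101419465-101419519, plus strand (Ak4) and chr11:120949028-120949066, plus strand (Slc16a3). In Slc16a3 there are 2 separate matches, and in Ak4 the 2 matches lie on opposite strands and overlap.
Ak4: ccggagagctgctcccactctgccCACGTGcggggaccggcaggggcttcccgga
Slc16a3: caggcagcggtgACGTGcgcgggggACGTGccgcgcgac
ACGTG occurred in 21.8% of all promoters, in 26.5% of those of tested genes, in 18 of 23 hypoxia genes and in 15 of 22 glycolysis genes with a sequence. It was found in 31.8% of called genes that rose and in 24.1% of those that fell.

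Genes of cell division were higher as a group. Aurka, the kinase of the spindle poles, lay at 3.69, 4.21, 3.54 and 4.04 in post-sepsis M0, against 1.81, 1.67, 0.96 and 1.71 in naive M0. The groups did not overlap, and Aurka rose by 5.04-fold (2.33 ± 0.21). Of 30 mitosis genes 29 rose, all but Ndc80 (0.81 ± 0.28), with a median of 1.91. In 1 of the 29 a further probe had the other sign. Cdc20, which activates the anaphase-promoting complex, differed by 2.24 ± 0.24, cyclin B1, Ccnb1, by 2.19 ± 0.28 and the proliferation marker Mki67 by 2.22 ± 0.22. Of 32 DNA replication genes 25 rose and none fell; 16 rose with median scaling. Mcm5, of the replicative helicase, lay at 4.17, 4.68, 3.88 and 4.13 in post-sepsis M0, against 2.48, 2.16, 1.46 and 2.05 in naive M0, and Rrm2, of the ribonucleotide reductase, differed by 2.02 ± 0.28. Pcna (0.26 ± 0.19) and Lig1 (-0.17 ± 0.24) did not pass. Among G1 regulators, 12 of 23 rose and 2 fell, against 6 and 0 with median scaling and 8 and 1 with the 8 arrays alone. The cyclins Ccnd1 and Ccnd2 differed by 1.81 ± 0.27 and 2.08 ± 0.28, Myc by 1.79 ± 0.36 and E2f7 by 1.89 ± 0.26. Kit, the receptor of stem cell factor, differed by 1.84 ± 0.32, and the granule genes Mpo and Ctsg, of the neutrophil list in which 10 of 19 fell and 3 rose, differed by 1.90 ± 0.31 and 2.15 ± 0.19. In the progenitor list 2 of 9 rose and 1 fell. Its summed signal was 75 to 132 in post-sepsis M0 and 99.3 to 135 in naive M0, and its part in the cell cycle result was not tested.

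Cdc20 and Ccnb2 are shown with TTTGAA, on either strand, the element found near the start of many mitotic genes. They lie at chr4:118437344-118437386, minus strand (Cdc20) and chr9:70421691-70421746, minus strand (Ccnb2). The match begins 18 bases before the start site in Cdc20 and farther off, 167 bases before it, in Ccnb2.
Cdc20: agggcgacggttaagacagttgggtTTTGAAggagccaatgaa
Ccnb2: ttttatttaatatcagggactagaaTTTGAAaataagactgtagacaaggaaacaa
TTTGAA occurred in 20.2% of all promoters, in 15.7% of those of tested genes, in 20 of 26 mitosis genes and in 4 of 27 DNA replication genes with a sequence. It was found in 19.6% of called genes that rose and in 15.6% of those that fell.

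**Figure D4:**
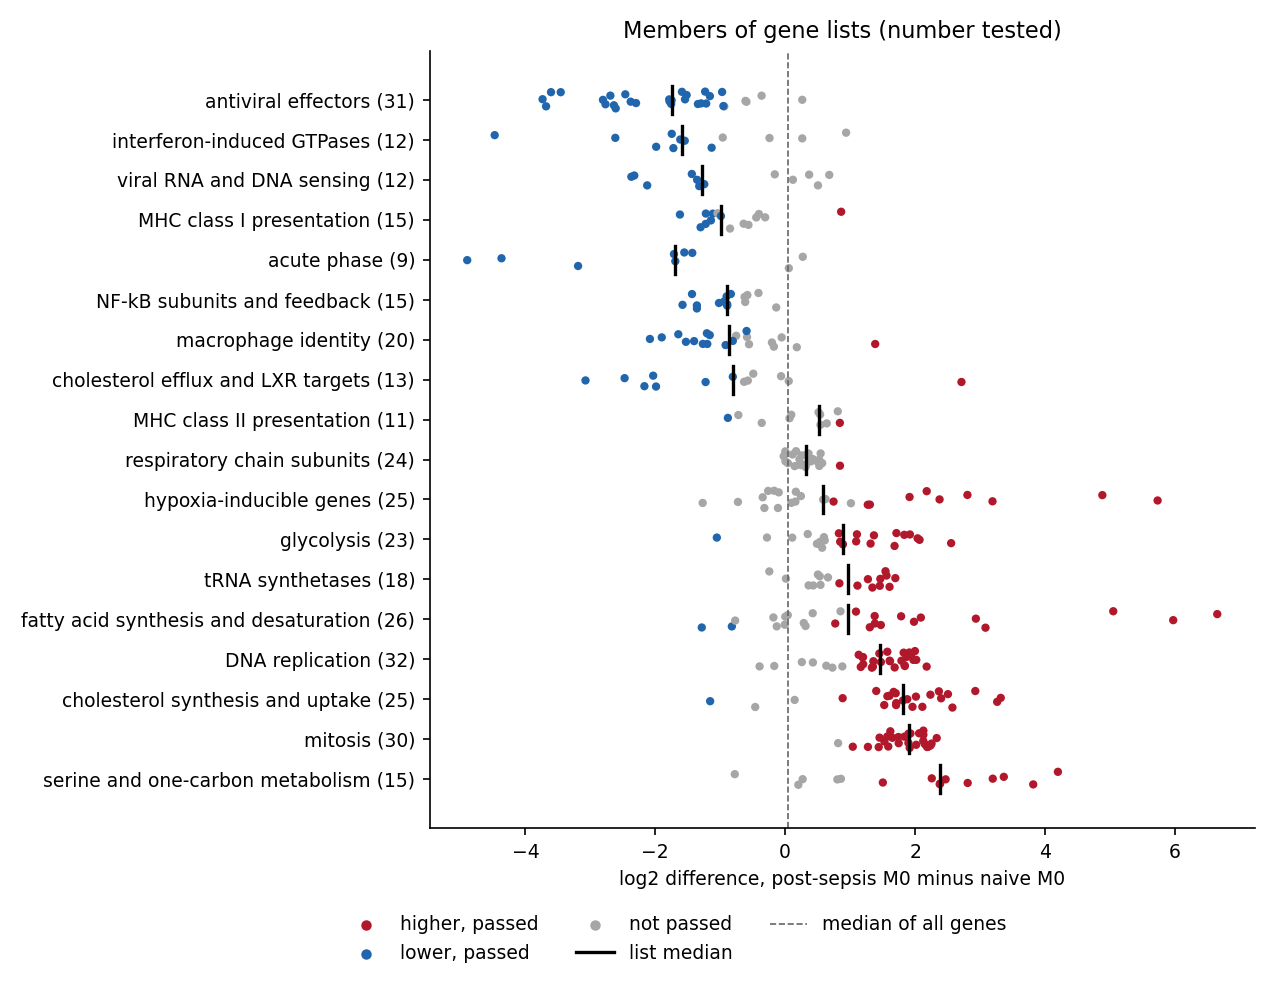
Log2 difference between post-sepsis M0 and naive M0 (horizontal axis) for each tested member of 18 gene lists. Each point is 1 gene, red where it rose, blue where it fell and grey where it did not pass, black bars are list medians and the dashed line is the median of all genes (0.05). Medians run from -1.75 in antiviral effectors to 2.38 in serine and one-carbon metabolism.

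Secreted and growth factor genes held further large differences. Thbs1, which encodes thrombospondin-1, lay at -1.82, -0.80, -2.09 and -1.23 in post-sepsis M0, against 2.96, 3.13, 2.59 and 3.17 in naive M0. The naive arrays were all far higher, by 21.9-fold (-4.45 ± 0.25). Of 21 genes of TGF-beta and BMP signalling 7 fell and 2 rose; 1 rose with median scaling or with the 8 arrays alone. Id3 fell (-2.62 ± 0.18), whereas its relative Id1 rose (1.68 ± 0.22), and Tgfb1 did not pass (0.21 ± 0.24). Bmp2 differed by -4.46 ± 0.33, and only 1 post-sepsis array was above background. The membrane metalloprotease Mmp14 fell (-2.69 ± 0.17), and the plasminogen activator Plau (2.44 ± 0.26), fibronectin, Fn1 (2.26 ± 0.27), and Timp1 (1.62 ± 0.20) rose. In lipid mediator synthesis, Alox5, which starts leukotriene synthesis, lay at 0.43, 1.08, 0.12 and 0.72 in post-sepsis M0, against -2.22, -2.10, -2.86 and -2.31 in naive M0, and it rose by 7.8-fold. The prostaglandin genes Ptgs1 (3.99-fold lower) and Ptger4 (-2.63 ± 0.39, detected on 3 post-sepsis arrays) fell. Dcstamp, a fusion protein of osteoclasts, rose (2.92 ± 0.21), and Acp5, the tartrate-resistant phosphatase, fell (-1.70 ± 0.19). Among chromatin regulators Prdm1 differed by -2.35 ± 0.22, Kdm6b, a histone demethylase induced in inflammation, by -1.44 ± 0.25 and Ezh2 by 1.58 ± 0.23.

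Among the 15 largest differences on each side, further rises were Cbr2, a carbonyl reductase (3.25 ± 0.22), and the transcribed pseudogene Gm8096 (3.37 ± 0.41). Further falls were Dnah2, a dynein heavy chain, which lay at -3.53, -2.67, -3.24 and -2.83 in post-sepsis M0, against 1.88, 1.39, 1.10 and 1.30 in naive M0 (-4.48 ± 0.22), Zmynd15 (-4.15 ± 0.19), Plxdc2 (-4.08 ± 0.17), Gm4951, an interferon-induced GTPase (-3.71 ± 0.29), Ifit2 (-3.60 ± 0.33) and the serine protease Tmprss4 (-3.55 ± 0.17). Zmynd15 lies next to Cxcl16 on chromosome 11: their probes are at chr11:70279625-70279684 and chr11:70267780-70267839 (mm9). Genes above background on no naive array rose by at least 5.19-fold (Cobll1), 4.78-fold (Rgs7bp), 4.68-fold (Cd209a, a dendritic cell lectin), 4.57-fold (Plb1), 4.37-fold (Nid2, a basement membrane protein), 4.18-fold (Lmo1) and 3.44-fold (Spry1, an inhibitor of growth factor signalling). Those above background on no post-sepsis array fell by at least 12.1-fold (Adgre4, a receptor of monocytes), 10.6-fold (Stfa1), 6.34-fold (Ifi213), 5.8-fold (Mill2), 4.76-fold (Srpk3), 3.44-fold (Adam22), 3.34-fold (Catspere1), 3.12-fold (Ifi214) and 2.48-fold (Klra6).

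The polarized cultures place these levels on a scale, as a description with no test. Ccl5 had a mean level of 9.79 ± 0.13 in M1, 4.70 ± 0.17 in M2, -0.36 ± 0.15 in post-sepsis M0 and 7.04 ± 0.31 in naive M0 (SD, n = 4 each), so post-sepsis M0 held the lowest level of the 4. Oasl1 was at 7.19 ± 0.14 in M1, 0.60 ± 0.09 in M2, -0.30 ± 0.40 in post-sepsis M0 and 3.43 ± 0.14 in naive M0. Post-sepsis M0 and M2 lay within 1 log2 unit of each other there, below naive M0 and M1. Scd2 was at 3.04 ± 0.25 in M1, 5.89 ± 0.15 in M2, 7.02 ± 0.43 in post-sepsis M0 and 1.97 ± 0.28 in naive M0. Its order put post-sepsis M0 on top, M2 next, and M1 and naive M0 below. Ccl2 was at 8.79 ± 0.16 in M1, 5.64 ± 0.47 in M2, 7.33 ± 0.46 in post-sepsis M0 and 3.06 ± 0.27 in naive M0, so that all the other groups lay above naive M0. Aurka was highest in post-sepsis M0, at 3.87 ± 0.30, against 1.54 ± 0.39 in naive M0, 0.91 ± 0.13 in M2 and -1.54 ± 0.15 in M1.

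The sepsis difference in M0 was larger than that in TAM for the 6 largest rises and the 6 largest falls among genes well above background in both M0 groups. In a fit over 23 arrays, with 3 naive TAM arrays, limma called the difference between the 2 sepsis effects in 1888 of 31779 genes (5.94%). All 12 genes passed, but they had been picked for the size of their M0 difference. For Scd2 the effect was 5.05 in M0 and 0.69 ± 0.24 in TAM, a difference of 4.36 ± 0.32 (adjusted p = 1.35e-07). For Ccl5 it was -7.40 in M0 and -1.18 ± 0.28 in TAM, a difference of -6.22 ± 0.38 (adjusted p = 1.5e-08). Saa3 and Cp had effects of -4.89 and -4.37 in M0, against 0.86 ± 1.01 and 0.55 ± 0.42 in TAM. With naive TAM replicate 2 kept, which the submitters had excluded, 737 genes passed, and the calls of Scd2 (1.96, adjusted p = 0.391), Ccl7 (2.45, adjusted p = 0.199) and Ccl2 (3.18, adjusted p = 0.0594) were lost. The TAM arrays hold cells that were isolated by density gradient and adhesion and not differentiated in culture, so the cell source and the culture differ together.

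**Figure D5:**
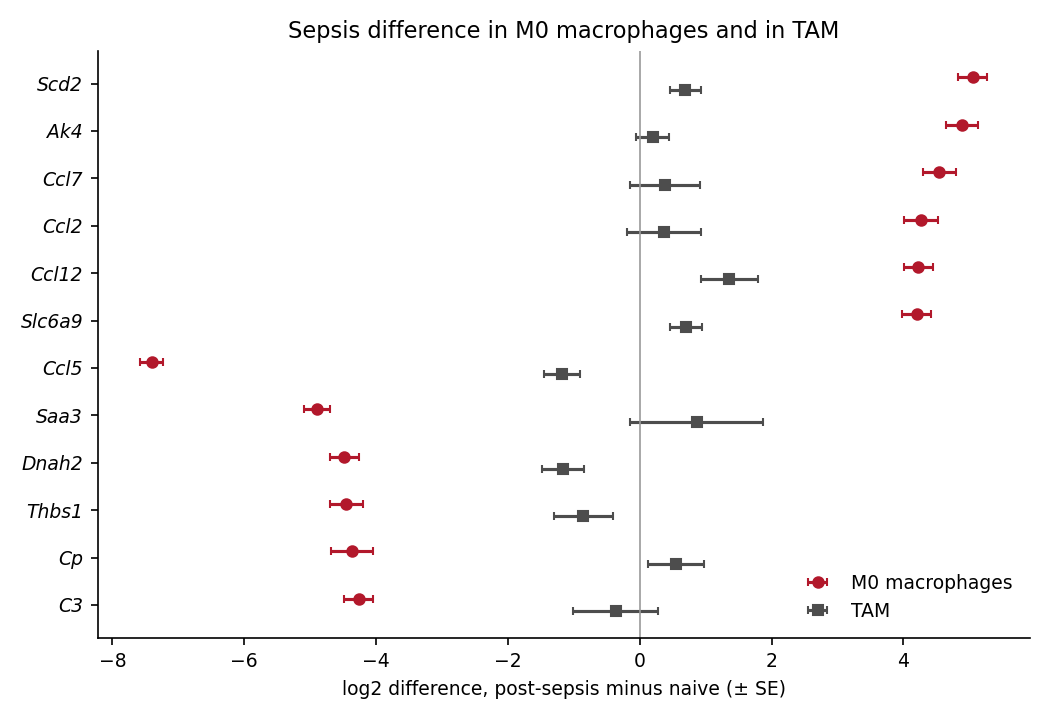
Log2 difference between post-sepsis and naive arrays (horizontal axis), with its standard error, in M0 macrophages (red circles) and in TAM (grey squares) for the 12 genes with the largest M0 rises and falls among genes well above background in both M0 groups. M0 differences lie between -7.40 and 5.05, and the TAM differences between -1.18 and 1.36.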

How the data were processed

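Gene expression was measured on 1-colour Agilent mouse arrays from 100 ng RNA labelled with Cy3. The deposited scanner files hold a processed intensity per spot, background-subtracted by Agilent Feature Extraction per the file headers, which name version 10.7.3.1, whereas the submitters' processing notes name 12.5. The log2 values of the deposited value table, whose processing is not given in the sources used here, were compared with the scanner files and not used further. Control spots and spots with non-uniformity or population outlier flags were left out. Log2 intensities were set relative to their own array at its 75th percentile. A probe entered the test if 3 or more arrays of 1 M0 group detected it well above background, and the probe with the highest mean represented each gene. limma 3.58.1 (R 4.3.3) was fitted on the 16 marrow culture arrays, and p-values were adjusted by the Benjamini-Hochberg method with a threshold of 0.05. Fold bounds ("at least") were computed for genes above background on no array of 1 group. On simulated data with 29668 genes, the fit recovered 21% of genes changed by 1 and 72% of those changed by 2 on the log2 scale. Far fewer genes were changed there than were called in the data, so the adjusted threshold was stricter there. The recovered shares therefore do not give the share found in the data.

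The comparison, the gene lists and the members were chosen with earlier results of these data known. Genes were named as the 15 largest differences and 10 largest bounds on each side, and up to 8 members per list, called members first. Some list members are counted but not reported here. A further 58 list members were named after their values were seen. Of these 14 had passed: Rsad2, Oas2, Isg15, Oas1g, Isg20, Mpeg1, Hmgcs1, Npc2, Acaca, Acly, Mthfd2, Slc1a5, Bnip3 and Slc2a1. Alternatives covered background correction, scaling, filters, the arrays fitted, slide and replicate blocks, probe choice, flagged spots, the variance prior and leaving out each array. Promoter sequences were RefSeq's (GRCm38.p6), and array coordinates are in mm9. The number of arrays limits the precision.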

Additional observations from a re-analysis of the deposited data

Results flagged for a closer look

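In 18 of 488 groups of 4 arrays (3.69%) 1 array lay far from the other 3 by Dixon's criterion at the 95% level, and chance flags about 1 in 20 groups. Post-sepsis replicate 2 was the highest of its group for Usp18 (0.94), Stab1 (6.83), Acly (5.85), Mthfd2 (4.02) and E2f7 (1.77). Naive replicate 3 was the lowest of its group for Ifit1 (1.24), Ifit3b (0.84), B2m (8.68), Nfkb1 (-0.76), S100a9 (7.08), Chil3 (2.43), Dgat2 (-1.82), Aurka (0.96) and Id1 (-2.09), and the highest for Ccnd2 (-1.04) and Cobll1 (-5.19). Naive replicate 1 was the highest for Kit (-2.06), and naive replicate 4 for Ptger4 (0.41).

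The sepsis effect in M0 minus that in TAM passed limma's test for 12 genes chosen for their M0 difference. It was 4.36 for Scd2, 4.69 for Ak4, 4.17 for Ccl7, 3.90 for Ccl2, 2.87 for Ccl12 and 3.49 for Slc6a9. On the other side it was -6.22 for Ccl5, -5.76 for Saa3, -3.32 for Dnah2, -3.60 for Thbs1, -4.92 for Cp and -3.90 for C3.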

How the results depend on the processing

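Median scaling left 1312 genes (627 higher, 685 lower) and the fit of the 8 M0 arrays alone 1640 (896 higher, 744 lower), and the cause was not tested. Called members of MHC class I presentation that fell numbered 4 with median scaling and 3 in the fit of 8 arrays. Median scaling left 8 glycolysis and 16 DNA replication genes that rose. The difference between M0 and TAM effects was called in 737 genes with naive TAM replicate 2 kept. Of 191 called genes named in the text, 162 passed in all 19 alternatives. With median scaling the calls of Ccl9, Pf4, Cxcl2, Igtp, Irf9, Ddx58, Tapbp, H2-Eb1, Cd86, Tlr13, C1qa, C5ar1, Mpeg1, Clec10a, Stab1, Chil3, Npc2, Acly, Apoe, Pparg, Slc1a5, Atf4, Bnip3, Slc2a1, Myc and Isg20 were lost. The 8 arrays alone lost those of Ccl9, Pf4, Cxcl2, Ifi44, Igtp, Irf9, Tapbp, Nlrc5, H2-Eb1, Cd86, Tlr13, C1qa, C5ar1, Mpeg1, Clec10a, Chil3, Npc2, Apoe and Pparg, and normexp those of Cxcl2 and Klra6. With the mean of all probes, Slfn5 (-1.13) and Gbp6 (-1.74) turned to lower and passed. Deviations from the group means correlated at -0.55, -0.13, -0.22 and 0.60 between M0 arrays of the same replicate number. Arrays of unlike number were not compared, so whether the numbers pair the samples was not settled. A replicate block gave 3396 calls. Leaving out 1 array gave 2636 to 3652 calls, 1398 to 2036 higher and 1238 to 2078 lower. Over the same fits 26 to 28 antiviral effectors, 8 to 9 GTPases, 7 to 9 MHC class I and 10 to 13 identity genes fell. Between 14 and 15 fatty acid, 10 and 11 serine, 13 and 17 glycolysis, 27 and 29 mitosis and 25 and 26 DNA replication genes rose, and 22 cholesterol genes rose in each. Values within slides 2 and 3 were computed with no test. The number of arrays limits all counts.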
